A study of Homo sapiens with 2 samples.

Results

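Epithelial-mesenchymal transition (EMT) was followed through 9 genes, CDH1, CDH2, EPCAM, VIM, FN1, SNAI1, SNAI2, ZEB2 and TWIST1, picked by symbol from the 33538 genes that the files list, and each symbol was found once in both libraries. Transcripts had been counted in single cells of H1, an established human embryonic stem cell (hESC) line, after 48 h in the presence of BMP4 at 50 ng/ml, the bone morphogenetic protein that drives these cells out of pluripotency. The WT library came from unmodified H1 cells, and the GATA3 KO library came from a monoclonal line, KO-GATA3-06, made by targeting the gene of the transcription factor GATA3 in an H1 derivative with a doxycycline-inducible Cas9 at AAVS1. Both were grown without feeder cells in mTeSR1 medium and both received BMP4, so no untreated cells were compared. With 1 library per group and 1 clone, genotype, clone, Cas9 cassette and library cannot be told apart, and a protocol note for WT that gives a shorter BMP4 exposure goes against its title and recorded duration, which were followed.

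In EMT, cells of an epithelial sheet loosen their contacts and become motile, and in the embryo this takes place at the primitive streak, where epiblast cells leave the sheet to form mesoderm and endoderm. E-cadherin (CDH1) holds epithelial cells together through the catenins, and its replacement by N-cadherin (CDH2) is the classical cadherin switch. The zinc-finger repressors SNAI1, SNAI2 and ZEB2 and the bHLH factor TWIST1 act against epithelial genes, EPCAM is an epithelial surface adhesion protein, VIM is an intermediate filament protein of mesenchymal cells, and FN1 is the matrix protein fibronectin. MIXL1, EOMES and TBXT mark cells of the streak and were used here only to order the cells.

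The WT library held 3802 cells and the GATA3 KO library 6221, with 200569649 and 284280464 unique molecular identifiers (UMIs, each standing for 1 captured transcript). After removal of cells with more than 7500 detected genes or more than 25% mitochondrial UMIs, 2519 and 4450 cells were kept. Levels are UMIs per 1000000 UMIs of the summed kept cells (CPM) and are given with exact Poisson 95% intervals, those of cell shares are exact Clopper-Pearson 95% intervals, and both cover counting error only. The libraries shared 8 cell barcodes, 5 of them among kept cells, and without these the members' ratios and the cadherin switch stayed within their counting intervals. GATA3 itself stood at 12.7 CPM (12.0 to 13.4) in WT and 10.9 CPM (10.5 to 11.4) in GATA3 KO, which checks nothing, since counts from the 3′ end do not show a lesion in the coding sequence, so directions below rest on the labels. Pluripotency markers summed to between 1375 and 2723 CPM in every bin of cells described below. Of 6 fibroblast markers, 2 or 3 (among COL1A1, COL1A2 and THY1) reached 20 CPM, and the list summed to between 152.8 and 170.2 CPM over the WT bins and between 240.0 and 308.1 CPM over the GATA3 KO bins, whereas LUM, a defining marker, had 0 UMIs in each bin. The 4 neural crest markers summed to between 1.70 and 10.0 CPM over the WT bins and between 3.05 and 18.1 CPM over the GATA3 KO bins, most of it FOXD3, which stood at 9.22 CPM (WT) and 15.6 CPM (GATA3 KO) without streak UMIs, whereas SOX10 lay at 0.431 CPM and 0.776 CPM there.

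Among the members above 20 CPM, CDH2 differed most between the libraries and CDH1 differed little. CDH2 (ENSG00000170558, chromosome 18, 27932879 to 28177946, minus strand, GRCh38) stood at 65.0 CPM (63.4 to 66.6) in WT and 25.2 CPM (24.5 to 26.0) in GATA3 KO, which is 2.58-fold lower, or -1.33 (-1.39 to -1.28) as log2 of the ratio of CPM plus 1. CDH1 (ENSG00000039068, chromosome 16, 68737292 to 68835537, plus strand) stood at 86.7 CPM (84.9 to 88.6) and 79.9 CPM (78.6 to 81.2), so that its log2 ratio was -0.12 (-0.16 to -0.08). The main cadherin difference between the libraries was thus in the amount of CDH2 and not of CDH1. In sums of this kind, fewer cells of a type and less RNA per cell cannot be told apart.

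The summed levels of the other members with many counts lay closer together or were higher in GATA3 KO. VIM (ENSG00000026025, chromosome 10, 17228241 to 17237593, plus strand) had 173.9 CPM (171.3 to 176.5) in WT and 289.3 CPM (286.8 to 291.8) in GATA3 KO, and the log2 ratio was 0.73 (0.71 to 0.76). FN1 (ENSG00000115414, chromosome 2, 215360440 to 215436073, minus strand) had 111.3 CPM (109.3 to 113.4) and 143.1 CPM (141.4 to 144.9), and its log2 ratio of 0.36 (0.33 to 0.39) changed sign to -0.064 when all deposited cells were used. After thinning, fewer cells held a FN1 UMI in GATA3 KO, 34.5% (33.0 to 36.0) against 45.0% (42.9 to 47.1) in WT, and at full depth 63.2% against 76.1%. EPCAM (ENSG00000119888, chromosome 2, 47345158 to 47387601, plus strand) had 288.6 CPM (285.2 to 291.9) and 293.6 CPM (291.1 to 296.1), and its log2 ratio of 0.02 likewise changed sign, to -0.035, over all deposited cells. Only the VIM difference among these kept its direction in each filter and scaling that was tried.

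The transcription factors were counted at a few CPM. SNAI1 (ENSG00000124216, chromosome 20, 49982980 to 49988886, plus strand) stood at 3.89 CPM (3.51 to 4.29) in WT and 3.05 CPM (2.80 to 3.32) in GATA3 KO. SNAI2 (ENSG00000019549, chromosome 8) had 58 UMIs in WT and 28 in the deeper GATA3 KO library, or 0.582 CPM (0.442 to 0.753) and 0.160 CPM (0.106 to 0.231). The sums of these SNAIL-family factors were thus lower in GATA3 KO, while those of the remaining factors were higher. For SNAI1 this order did not hold in the cells without streak UMIs described below. ZEB2 (ENSG00000169554, chromosome 2, 144364364 to 144521057, minus strand) had 0.613 CPM (0.469 to 0.787) in WT and 1.10 CPM (0.951 to 1.27) in GATA3 KO. TWIST1 (ENSG00000122691, chromosome 7, 19020991 to 19117636, minus strand) had 2.01 CPM (1.74 to 2.31) and 4.88 CPM (4.56 to 5.22), a 2.43-fold difference. The annotation lists numbered copies for SNAI1 (SNAI1P1) and ZEB2 (ZEB2P1), with which reads could be lost or split, so these levels are uncertain.

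**Figure D1:**
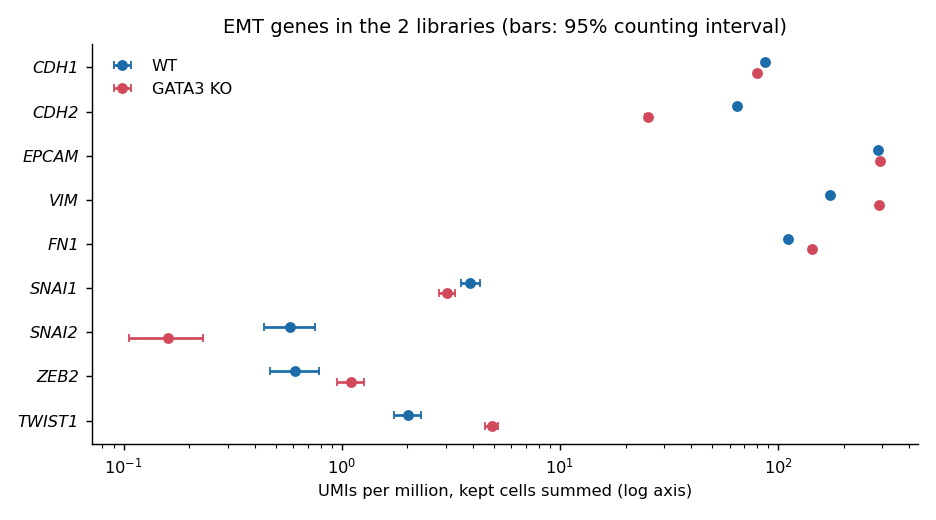
Level of each of the 9 EMT genes in the WT and GATA3 KO libraries, as UMIs per 1000000 summed over kept cells on a log axis, with 95% counting intervals as bars. The widest separation among the genes above 20 CPM is that of CDH2, at 65.0 in WT and 25.2 in GATA3 KO, and CDH1 lies nearly at the same level in both.

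To place these values among all genes, 5529 genes reached 20 CPM in the higher library, and of these 2.41% were at least 2-fold higher and 1.99% at least 2-fold lower in GATA3 KO on the log2(CPM plus 1) scale. Of the 9 members, 5 reached 20 CPM, 1 of which was 2-fold lower (CDH2) and 0 of which were 2-fold higher. The median log2 ratio over the 9 members was 0.02, beside 0.07 over all genes of at least 20 CPM.

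The start regions of CDH2, VIM and FN1, the 3 members past 2-fold along the streak order described below, in summed CPM, are given to show the sequence just before each transcript. RefSeq windows of GRCh38.p14 were found for 4 of the 8 members looked up (CDH2, VIM, FN1 and ZEB2), and none for CDH1, EPCAM, SNAI1 and TWIST1. Each window holds the 250 bases before the annotated start, read 5′ to 3′ on the strand of the gene, and capitals mark a match to either of the words searched. The words were the E-box bound by SNAIL and ZEB factors (CAGGTG, or CACCTG on the other strand) and the core of the T-box site (AGGTGT, or ACACCT on the other strand), which share the letters AGGTG and so can overlap.
CDH2, chr18:28177131-28177380, minus strand: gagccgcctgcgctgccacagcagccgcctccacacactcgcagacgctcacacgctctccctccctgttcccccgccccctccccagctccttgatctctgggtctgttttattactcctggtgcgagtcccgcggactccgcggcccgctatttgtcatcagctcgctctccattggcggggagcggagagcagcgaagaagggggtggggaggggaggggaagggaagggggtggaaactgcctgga
VIM, chr10:17227991-17228240, plus strand: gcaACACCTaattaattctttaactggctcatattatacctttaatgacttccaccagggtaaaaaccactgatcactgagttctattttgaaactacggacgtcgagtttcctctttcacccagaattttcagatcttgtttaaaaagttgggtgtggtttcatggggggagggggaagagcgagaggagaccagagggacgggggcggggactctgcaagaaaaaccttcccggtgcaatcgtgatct
FN1, chr2:215436069-215436318, minus strand: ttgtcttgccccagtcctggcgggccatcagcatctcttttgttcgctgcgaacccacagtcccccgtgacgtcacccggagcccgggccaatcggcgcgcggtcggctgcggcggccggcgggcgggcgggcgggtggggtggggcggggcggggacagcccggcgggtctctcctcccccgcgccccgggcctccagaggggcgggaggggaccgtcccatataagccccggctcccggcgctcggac
The window of VIM held 1 T-box word and no E-box word, and those of CDH2 and FN1 held neither word. Over all 35116 promoter windows of this length, 17.5% held the E-box word and 9.57% the T-box word. Binding was not measured here, and CDH2 has another RefSeq start (its window is chr18:28036642-28036891) that a 3′ count does not tell from the first.

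To ask whether the cadherins switch as cells take on streak identity, each cell was thinned at random to 10000 UMIs and placed in a bin by its summed UMIs of MIXL1, EOMES and TBXT. Thinning left 2173 WT and 4038 GATA3 KO cells. In WT, 1203 cells had 0 of these UMIs, 271 had 1, 265 had 2 to 3, 233 had 4 to 7 and 201 had 8 or more. In GATA3 KO the bins held 3789, 165, 62 and 22 cells, the last with 4 or more UMIs, because bins under 20 cells were joined to the one below. Thus 44.6% of WT cells but 6.17% of GATA3 KO cells had any streak UMI. Median depth before thinning ranged from 44207 to 50216.5 UMIs over the 9 bins, so depth differed little along the order. Levels by bin were then taken from all UMIs of the binned cells.

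CDH2 was higher at each step in WT, and CDH1 changed little below the highest bin. CDH2 had 42.9 CPM (41.2 to 44.7) in WT cells with 0 streak UMIs, 48.7 CPM with 1, 67.3 CPM with 2 to 3, 98.7 CPM with 4 to 7 and 173.1 CPM (164.7 to 181.7) with 8 or more, a 4.03-fold difference between the end bins. CDH1 had 90.6 CPM (88.1 to 93.2), 93.4 CPM, 83.7 CPM, 82.9 CPM and 65.8 CPM (60.8 to 71.2) in the same bins, so the end bins differed 1.38-fold. The change of the cadherin pair along the streak order in WT was therefore mostly in CDH2. Markers of endoderm moved with the same order, since GATA6, SOX17 and FOXA2 summed to 4.48 CPM without streak UMIs and to 92.5 CPM with 8 or more in WT, and to 0.154 CPM and 19.3 CPM in the end bins of GATA3 KO, and their part in the cadherin levels was not tested.

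In GATA3 KO the same order gave a smaller change of CDH2 between the end bins, which lie at unlike streak levels in the 2 libraries. CDH2 had 24.6 CPM (23.8 to 25.3) with 0 streak UMIs, 35.0 CPM with 1, 29.3 CPM with 2 to 3 and 44.7 CPM (32.5 to 60.1) with 4 or more, the last value resting on 44 UMIs in 22 cells. CDH1 had 80.7 CPM (79.3 to 82.0), 71.1 CPM, 70.0 CPM and 54.9 CPM (41.3 to 71.6) in these bins. Both cadherins therefore moved in the WT direction between the end bins, while the middle bins of CDH2 did not follow the order. The end bins differed 1.82-fold for CDH2, against 4.03-fold in WT. For CDH1 they differed 1.47-fold, against 1.38-fold in WT, and the intervals of these log2 ratios overlap. The highest GATA3 KO bin also starts at fewer streak UMIs than that of WT, so these folds are not for like streak levels. WT cells with 4 to 7 streak UMIs, nearer to that bin in MIXL1, had 98.7 CPM of CDH2 beside 42.9 CPM without streak UMIs.

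The pair was put on a scale of its own as log2 of CDH2 over CDH1 UMIs in the highest bin minus the same in the 0 bin, which cancels the unequal capture of the 2 transcripts. This switch was 2.47 (2.32 to 2.63) in WT and 1.42 (0.84 to 1.997) in GATA3 KO, or 5.55-fold and 2.68-fold. With the WT bins joined to end at 4 or more UMIs as in GATA3 KO, it was 1.90 (1.79 to 2.02) in WT, an interval that overlaps that of GATA3 KO. The joined WT bin still held the 201 cells with 8 or more. CDH2 made up 32.1%, 34.3%, 44.6%, 54.3% and 72.4% of the pair's UMIs over the WT bins. Over the GATA3 KO bins it made up 23.3%, 33.0%, 29.5% and 44.9%. Up to 4 to 7 streak UMIs in WT, this share thus went from 32.1% to 54.3%, beside 23.3% to 44.9% in GATA3 KO. No switch value was computed with that WT bin as the highest. With cells ordered by a single gene, the highest bin of at least 20 cells changed too. In WT the switch was 2.85 by MIXL1 alone (highest bin 8 or more), 2.15 by EOMES alone (4 or more) and 1.09 by TBXT alone (2 or more). In GATA3 KO it was 1.10 and 1.08 (both 2 or more) and, by TBXT alone (1 or more), 0.17 (-0.26 to 0.60). The gene and the bin edge changed together in these values.

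**Figure D2:**
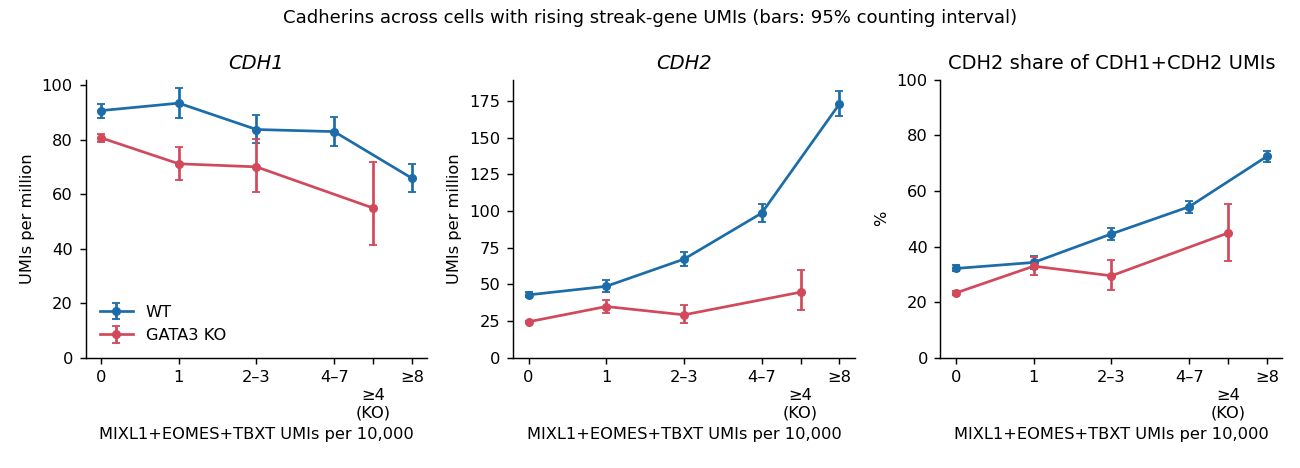
CDH1 and CDH2 as UMIs per 1000000, and CDH2 as a percentage of the UMIs of the pair, in cells binned by MIXL1, EOMES and TBXT UMIs after thinning to 10,000 UMIs, with 95% counting intervals as bars; the highest GATA3 KO bin (4 or more) stands between the last 2 WT bins. CDH2 goes from 42.9 to 173.1 in WT and from 24.6 to 44.7 in GATA3 KO, and CDH1 goes from 90.6 to 65.8 and from 80.7 to 54.9.

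Detection of both cadherins in the same cell was then counted. After thinning, CDH1 alone was seen in 37.7% (35.0 to 40.6) of the 1203 WT cells without streak UMIs and in 11.4% (7.39 to 16.7) of the 201 cells with 8 or more. CDH2 alone was seen in 13.4% (11.5 to 15.4) and 39.8% (33.0 to 46.9), and both in 19.5% (17.3 to 21.8) and 36.3% (29.7 to 43.4). At full depth, 71.6% and 90.0% of the cells in these bins held both, and CDH2 alone was in 3.41% and 7.96%. Most cells with CDH2 alone after thinning thus held CDH1 UMIs that were not drawn. No group of cells that should lack either cadherin was at hand, so the share that free RNA alone would give was not measured and these shares are of cells with a UMI. If detection of each cadherin were independent of the other within the bin, 18.8% and 36.4% of cells would show both after thinning, close to the shares counted.

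More CDH2 than CDH1 UMIs were seen in 16.3% (14.3 to 18.5) of WT cells without streak UMIs and in 20.3%, 20.8%, 35.2% and 60.2% (53.1 to 67.0) over the higher bins. Per-cell levels shifted as a whole, since the quartiles of CDH2 were 6.08, 34.3 and 63.4 CPM in WT cells without streak UMIs and 86.3, 159.0 and 228.6 CPM in those with 8 or more, so the lower quartile of the latter lay above the upper quartile of the former. In GATA3 KO the share with more CDH2 than CDH1 was 11.2% (10.2 to 12.2) without streak UMIs and 13.6% (2.91 to 34.9) with 4 or more, which 22 cells do not tell apart. Over all thinned cells, the UMIs of CDH1 and CDH2 had a Spearman correlation of -0.02 in WT (2173 cells) and -0.03 in GATA3 KO (4038 cells), too weak in counts this sparse to read as exclusion or as coupling.

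**Figure D3:**
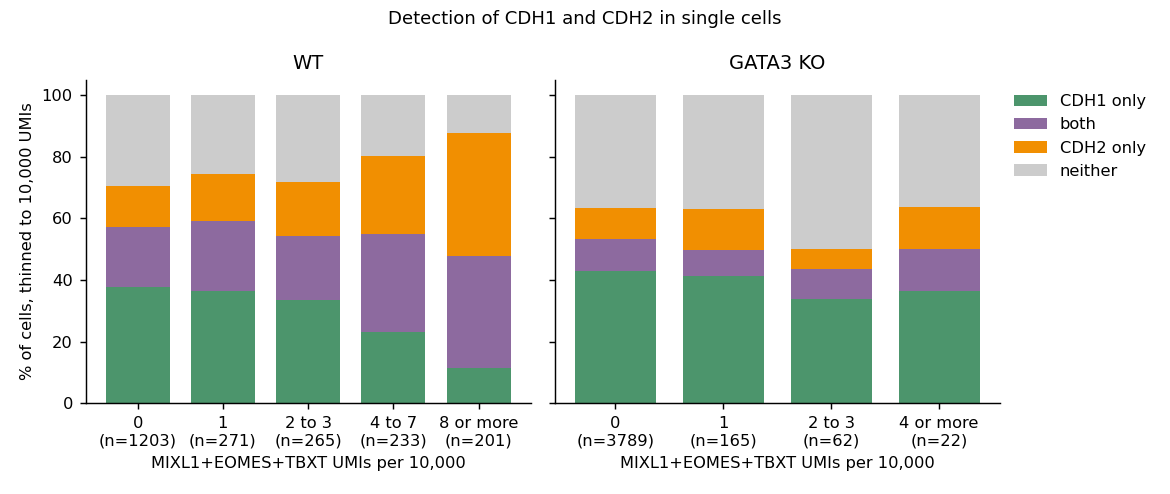
Share of cells in which CDH1, CDH2, both or neither were detected after thinning to 10,000 UMIs, by bin of streak-gene UMIs, with the number of cells under each bar. In WT, CDH2 alone goes from 13.4% to 39.8% and CDH1 alone from 37.7% to 11.4%, and in GATA3 KO the highest bar holds 22 cells.

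VIM did not follow the textbook direction of a mesenchymal gene. It was lower in streak cells, with 239.2 CPM (235.1 to 243.4) in WT cells without streak UMIs, 125.0 CPM with 1, 73.7 CPM with 2 to 3, 85.9 CPM with 4 to 7 and 90.4 CPM (84.4 to 96.7) with 8 or more. In GATA3 KO it was lower at each step, with 295.0 CPM, 230.6 CPM, 143.0 CPM and 89.5 CPM (71.8 to 110.2). The end bins differed 2.65-fold in WT and 3.30-fold in GATA3 KO, so the highest bins of the libraries met at nearly the same VIM level from different starts.

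The summed level of FN1 and its level in the median cell had different orders. Summed over cells, it had 117.9 CPM (115.0 to 120.9), 146.0 CPM, 98.0 CPM, 77.3 CPM and 56.0 CPM (51.3 to 60.9) over the WT bins, and 140.8 CPM (139.0 to 142.7), 173.3 CPM, 139.3 CPM and 84.4 CPM (67.2 to 104.6) over the GATA3 KO bins. The median over single cells was lowest without streak UMIs in both libraries, at 38.5 CPM against 49.0 CPM in the highest bin of WT and 25.7 CPM against 64.9 CPM in that of GATA3 KO. A FN1 UMI was seen after thinning in 41.1% (38.3 to 43.9) and 45.8% (38.7 to 52.9) of cells in the end bins of WT and in 33.3% (31.8 to 34.9) and 50.0% (28.2 to 71.8) in those of GATA3 KO, and at full depth in 77.6% and 83.6% and in 65.9% and 81.8%. EPCAM, the epithelial member, was lowest in the highest bins, at 295.2 CPM (290.6 to 299.8), 335.5 CPM, 286.9 CPM, 268.9 CPM and 200.9 CPM (192.0 to 210.2) in WT and 290.5 CPM (287.9 to 293.1), 357.4 CPM, 328.1 CPM and 237.9 CPM (208.4 to 270.5) in GATA3 KO. EPCAM was highest in cells with a single streak UMI in both libraries.

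SNAI1, a repressor of CDH1, was the transcription factor of the list with the clearest change in WT. It had 2.15 CPM (1.78 to 2.59) with 0 streak UMIs, 2.13 CPM with 1, 3.29 CPM with 2 to 3, 5.39 CPM with 4 to 7 and 14.4 CPM (12.0 to 17.0) with 8 or more, a 6.67-fold difference between the end bins. After thinning, 2.08% (1.35 to 3.05) of cells without streak UMIs and 11.9% (7.80 to 17.2) of those with 8 or more held a SNAI1 UMI, and 8.73% and 45.3% did so at full depth. In GATA3 KO, SNAI1 had 3.02 CPM (2.76 to 3.30), 2.96 CPM, 2.69 CPM and 6.10 CPM (2.24 to 13.3), so no difference between its end bins was detectable with 6 UMIs in the highest. Among cells without streak UMIs, SNAI1 was higher in GATA3 KO than in WT, with a log2 ratio of 0.35 (0.14 to 0.56), against the direction of its sum over all kept cells.

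SNAI2, a close relative of SNAI1, was near the limit of detection outside the highest WT bin. It had 0.225 CPM (0.116 to 0.393) in WT cells without streak UMIs and 2.87 CPM (1.89 to 4.18) in those with 8 or more, from 12 and 27 UMIs. After thinning, a SNAI2 UMI was seen in 0 of 1203 cells, which at 3 counts for a count of 0 allows a share of up to 0.249% at that depth, and in 6 of 201 cells (2.99%, 1.10 to 6.38). At full depth the shares were 0.914% and 7.46%. In GATA3 KO it was seen in 0 of the 22 cells with 4 or more streak UMIs, thinned or at full depth, which by the same 3 counts allows a share of up to 13.6%, so these cells are too few to compare with WT.

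ZEB2 and TWIST1 differed in their order. ZEB2, a repressor of CDH1, had 0.337 CPM (0.200 to 0.533) in WT cells without streak UMIs and 1.60 CPM (0.893 to 2.63) in those with 8 or more, and stood at 1.07 CPM (0.912 to 1.24) and 1.02 CPM (0.026 to 5.67) in the end bins of GATA3 KO. TWIST1 had 2.15 CPM (1.78 to 2.59) and 1.28 CPM (0.660 to 2.23) in the end bins of WT, whose intervals overlap, and its highest value was 9.95 CPM (7.81 to 12.5) in GATA3 KO cells with 1 streak UMI. Thus SNAI1, SNAI2 and ZEB2 were higher in the highest WT bin and TWIST1 was not.

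**Figure D4:**
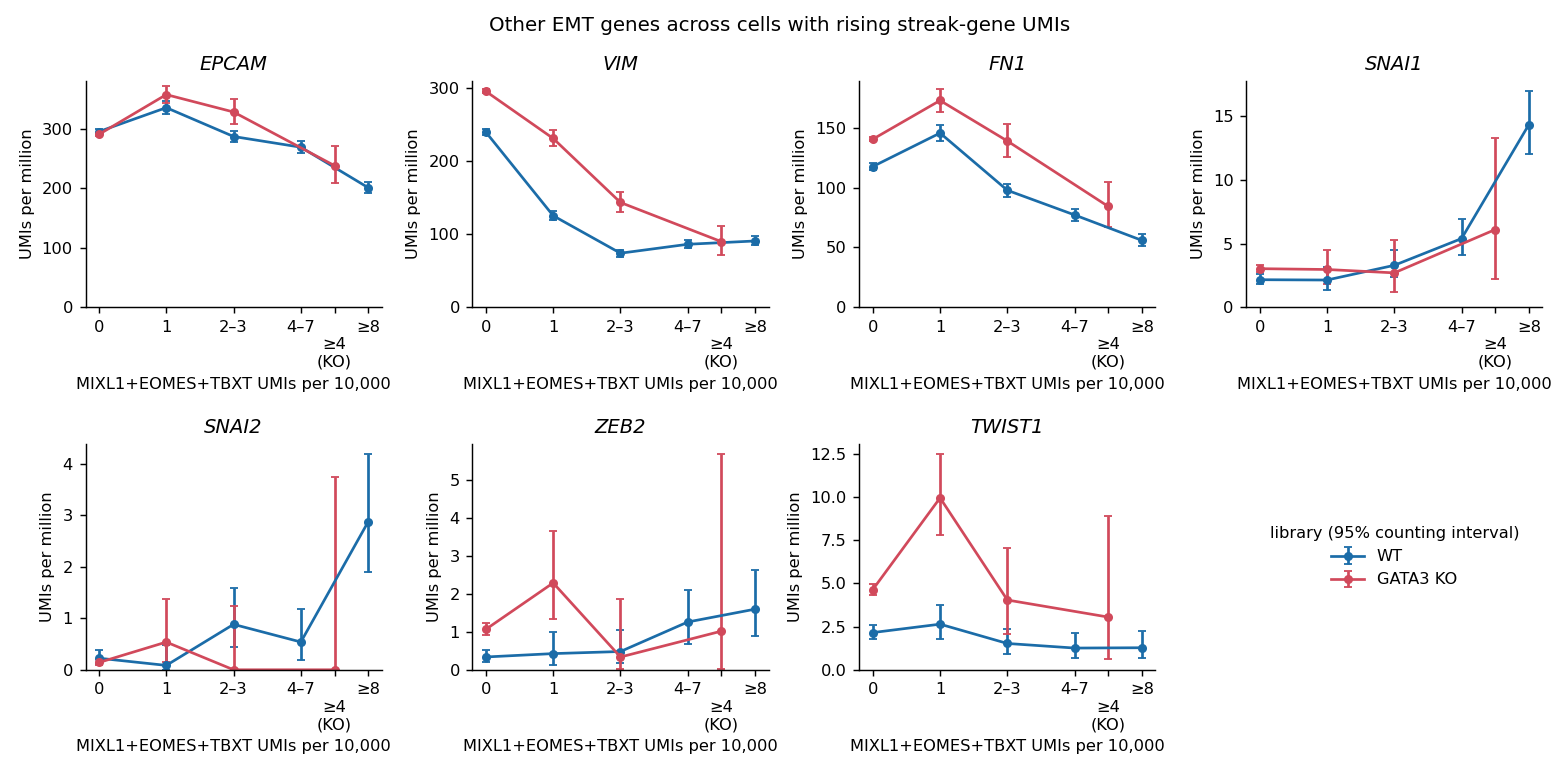
EPCAM, VIM, FN1, SNAI1, SNAI2, ZEB2 and TWIST1 as UMIs per 1000000 in cells binned by streak-gene UMIs, with 95% counting intervals as bars; each panel has its own axis from 0, and the highest GATA3 KO bin (4 or more) stands between the last 2 WT bins. VIM goes from 239.2 to 90.4 in WT and from 295.0 to 89.5 in GATA3 KO, and SNAI1 reaches 14.4 in the highest WT bin.

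Between the end bins, 2.53% of the 5327 genes of at least 20 CPM in WT were at least 2-fold higher and 2.14% at least 2-fold lower with 8 or more streak UMIs. Of the 5 members of at least 20 CPM, 1 was 2-fold higher (CDH2) and 2 were 2-fold lower (VIM and FN1, the latter in its sum but not in its per-cell median). The median over all 9 members was -0.46 beside 0.01 over all genes of at least 20 CPM. In GATA3 KO, 2.35% of 5564 genes were 2-fold higher and 2.41% 2-fold lower with 4 or more streak UMIs, counts to which the small number of cells adds counting noise. There, 0 members were 2-fold higher and 1 was 2-fold lower (VIM), and the median over the 9 members was -0.29 beside 0.01.

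Cells without streak UMIs were then split by SOX2 and TFAP2A. Cells with no TFAP2A UMI and at least 2 UMIs of SOX2, a pluripotency and neural factor, are called SOX2 cells, and cells with at least 1 UMI of TFAP2A, a factor of amnion and surface ectoderm, are called TFAP2A cells. They numbered 645 and 120 in WT and 2722 and 638 in GATA3 KO, and 438 and 429 cells fell in neither group. These are ranges of a count and not cell types, and 82 of the 120 WT and 321 of the 638 GATA3 KO TFAP2A cells held a single TFAP2A UMI. Near the SOX2 limit, 390 WT and 643 GATA3 KO cells without TFAP2A held 1 or 2 SOX2 UMIs. Median depth lay between 43411 and 47316 UMIs in all of these groups.

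FN1 differed most between these groups among the members above 20 CPM, and it was high in TFAP2A cells of both libraries. In WT it had 41.1 CPM (38.8 to 43.5) in SOX2 cells and 463.0 CPM (444.5 to 482.0) in TFAP2A cells. In GATA3 KO it had 33.0 CPM (32.0 to 34.1) and 559.5 CPM (550.7 to 568.3). As a sum it was thus lower in SOX2 cells of GATA3 KO, with -0.31 (-0.40 to -0.21) as the log2 ratio. In TFAP2A cells the sum was higher in GATA3 KO, with 0.27 (0.21 to 0.34). The median TFAP2A cell went the other way, at 293.0 CPM in WT and 253.5 CPM in GATA3 KO, while the upper quartiles were 696.1 CPM and 840.2 CPM. TFAP2A cells held 22.2% of the FN1 UMIs of thinned cells in WT and 63.3% in GATA3 KO. These shares leave out cells with both a TFAP2A and a streak UMI. With them, 247 WT and 709 GATA3 KO cells held a TFAP2A UMI, beside the 120 and 638 counted here, so the shares differ partly by this definition.

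EPCAM, ZEB2 and TWIST1 had the same order as FN1. EPCAM had 246.8 CPM (241.1 to 252.5) in SOX2 cells and 486.7 CPM (467.7 to 506.2) in TFAP2A cells of WT, and 232.9 CPM and 482.6 CPM (474.5 to 490.9) in GATA3 KO. ZEB2 had 0.136 CPM (0.037 to 0.349) and 1.57 CPM (0.677 to 3.09) in the same groups of WT, the latter near its 1.60 CPM in the highest WT bin. In GATA3 KO it had 0.505 CPM (0.384 to 0.651) and 3.59 CPM (2.92 to 4.36). TWIST1 had 0.647 CPM (0.390 to 1.01) in SOX2 cells and 8.24 CPM (5.94 to 11.1) in TFAP2A cells of WT, and 0.753 CPM (0.604 to 0.928) and 18.6 CPM (17.0 to 20.3) in GATA3 KO. After thinning, TWIST1 was seen in 0.775% (0.252 to 1.80) and 7.50% (3.49 to 13.8) of these cells in WT and in 0.771% (0.478 to 1.18) and 11.8% (9.36 to 14.5) in GATA3 KO. Its share in SOX2 cells was nearly the same in both libraries and is taken as the background. The higher TWIST1 sum of GATA3 KO went with more TFAP2A cells (15.8% of thinned cells against 5.52% in WT) and with a higher level in them. Counted with or without streak UMIs, 17.6% and 11.4% of thinned cells held a TFAP2A UMI. In TFAP2A cells, TFAP2A itself stood at 175.1 CPM in GATA3 KO and 105.9 CPM in WT, and its part was not tested. The cells of neither group had 8.38 CPM of TWIST1 in GATA3 KO and 2.86 CPM in WT.

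VIM had the opposite order. It had 288.4 CPM (282.3 to 294.7) in SOX2 cells and 191.8 CPM (179.9 to 204.2) in TFAP2A cells of WT, and 305.2 CPM (302.0 to 308.4) and 264.1 CPM (258.1 to 270.2) in GATA3 KO. SOX2 cells made up 29.7% of thinned WT cells and 67.4% of thinned GATA3 KO cells. Between the libraries, the log2 ratio of VIM was 0.08 (0.05 to 0.12) in SOX2 cells and 0.46 (0.36 to 0.56) in TFAP2A cells, beside 0.73 over all kept cells. In the cells of neither group VIM had 175.6 CPM in WT and 276.4 CPM in GATA3 KO. Its log2 ratio was 0.88 (0.78 to 0.98) with 1 streak UMI, 0.95 (0.78 to 1.11) with 2 to 3 and 0.02 (-0.30 to 0.33) with 4 or more.

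CDH2 differed between the libraries also where no streak UMI was seen. It had 44.3 CPM (41.9 to 46.8) in SOX2 cells of WT and 24.1 CPM (23.2 to 24.98) in those of GATA3 KO, so the log2 ratio was -0.85 (-0.95 to -0.76). CDH1 had 84.9 CPM (81.6 to 88.3) in the former and 80.2 CPM (78.6 to 81.8) in the latter, where the log2 ratio was -0.08. SOX2 cells of WT still held low streak transcripts at full depth, with MIXL1 at 2.79 CPM and EOMES at 4.63 CPM against 0.616 CPM and 1.38 CPM in GATA3 KO, and the part of this in the CDH2 difference was not tested. In TFAP2A cells CDH1 was higher in WT, at 121.0 CPM (111.6 to 130.9) against 87.1 CPM (83.7 to 90.6).

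**Figure D5:**
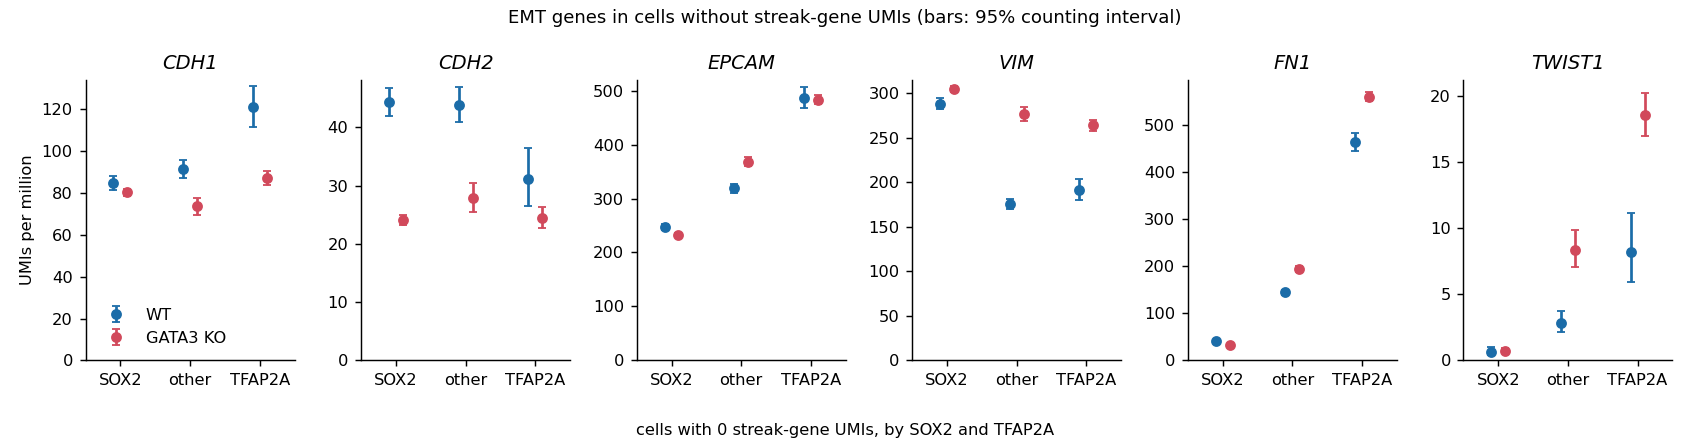
CDH1, CDH2, EPCAM, VIM, FN1 and TWIST1 as UMIs per 1000000 in cells without streak-gene UMIs, split into SOX2 cells, TFAP2A cells and other cells, with 95% counting intervals as bars; each panel has its own axis from 0. FN1 goes from 41.1 to 463.0 in WT and from 33.0 to 559.5 in GATA3 KO between SOX2 and TFAP2A cells, and CDH2 in SOX2 cells stands at 44.3 in WT and 24.1 in GATA3 KO.

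Libraries were also set side by side in bins near in streak level. GATA3 KO cells with 4 or more streak UMIs held 307.1 CPM of MIXL1 and 198.3 CPM of EOMES. WT cells with 4 to 7 held 313.9 CPM and 149.0 CPM. TBXT was lower in the GATA3 KO cells, at 36.6 CPM against 53.0 CPM, so the match is not exact. Between these cells, CDH2 stood at 44.7 CPM in GATA3 KO and 98.7 CPM (92.9 to 104.7) in WT, with -1.12 as the log2 ratio (-1.58 to -0.70), and CDH1 at 54.9 CPM and 82.9 CPM, with -0.59 (-1.001 to -0.20). The other 7 members had intervals of the log2 ratio that held 0, among them -0.37 to 0.02 for EPCAM, -0.27 to 0.37 for VIM and -1.03 to 1.22 for SNAI1. The same cells also differed in SOX2, at 115.9 CPM in GATA3 KO and 33.2 CPM in WT. MESP1, a factor of nascent mesoderm, had 0 UMIs in GATA3 KO and 18.6 CPM in WT. In WT, however, only 18 of these 233 cells held a MESP1 UMI after thinning. At 3 counts for a count of 0, the 22 GATA3 KO cells allow a share of up to 13.6%, so they are too few to compare.

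The highest WT bin was then divided by MESP1, a division chosen after the values had been seen. Of its 201 cells, 76 held a MESP1 UMI after thinning and 125 did not. CDH2 had 210.0 CPM (195.1 to 225.7) with MESP1 and 150.9 CPM (141.1 to 161.1) without, and CDH1 had 52.2 CPM (44.9 to 60.2) and 74.1 CPM (67.3 to 81.4). SNAI1 had 19.6 CPM (15.2 to 24.8) and 11.2 CPM (8.69 to 14.3), ZEB2 had 3.68 CPM (1.96 to 6.30) and 0.341 CPM (0.041 to 1.23), and VIM had 125.5 CPM (114.1 to 137.8) and 69.3 CPM (62.7 to 76.4). FN1 had 51.0 CPM (43.8 to 59.0) and 58.9 CPM (52.9 to 65.5), intervals that overlap. The summed levels of CDH1, CDH2, SNAI1, ZEB2 and VIM in cells with MESP1 thus lay further in the EMT direction, and these cells also held more streak transcripts, 1388 CPM of the 3 genes summed against 1054 CPM, and more CER1, a gene of anterior streak and endoderm, at 898.4 CPM against 284.7 CPM. The part of either in these differences was not tested. A VIM UMI was seen after thinning in 46.1% (34.5 to 57.9) of the cells with MESP1 and in 46.4% (37.4 to 55.5) of those without.

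The same bin was divided by SNAI1, again after the values had been seen. The 24 cells with a SNAI1 UMI had 204.1 CPM (179.3 to 231.3) of CDH2 and 50.0 CPM (38.1 to 64.3) of CDH1. The 177 cells without had 168.5 CPM (159.7 to 177.6) and 68.2 CPM (62.6 to 74.1), so the intervals of CDH1 overlap. A CDH1 UMI was seen after thinning in 50.0% (29.1 to 70.9) of the cells with SNAI1 and in 47.5% (39.9 to 55.1) of those without. The cells with SNAI1 also held more CER1 (1141 CPM against 423.4 CPM), more streak transcripts (1358 CPM against 1154 CPM) and more UMIs (a median of 56248.5 against 48576), whose part was not tested. In the bin below, the 9 cells with a SNAI1 UMI had 99.5 CPM (73.1 to 132.3) of CDH1 and the 224 without had 82.2 CPM (76.8 to 87.8), so a lower CDH1 level beside SNAI1 was not seen there.

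Other genes of the pathway were described as lists. Of 16 epithelial genes, 10 reached 20 CPM, and of these 2 were 2-fold higher in GATA3 KO (CLDN6 and KRT8), 0 were lower and 8 lay within 2-fold, beside 2.41% higher and 1.99% lower among all genes of that level. The tight-junction gene CLDN6 had 132.3 CPM (WT) and 389.2 CPM (GATA3 KO), a log2 ratio of 1.55 (1.52 to 1.58), and the keratin gene KRT8 had 241.9 CPM and 497.5 CPM, a log2 ratio of 1.04 (1.02 to 1.06). The median was 0.28 over the 16 and 0.11 over the 10 that reached 20 CPM, beside 0.07 over all genes of at least 20 CPM. Between the end bins, 0 of the 10 epithelial genes passed 2-fold in either library. The median over the 16 was -0.26 in WT and -0.14 in GATA3 KO, beside 0.01 over all genes of at least 20 CPM.

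Of 17 mesenchymal genes, 5 reached 20 CPM, and 0 of them passed 2-fold between the libraries, with a median over the 17 of -0.06. Between the end bins of WT, 1 of the 5 (beside 2.14% of all genes) was 2-fold lower, namely the calcium-binding protein gene S100A4 at 82.8 CPM and 32.2 CPM, and 0 were higher. It was also the 1 gene past 2-fold in GATA3 KO, at 51.4 CPM and 24.4 CPM. The median over the 17 genes was 0.64 in WT and -0.07 in GATA3 KO. Over the 5 that reached 20 CPM it was 0.35 and -0.02, beside 0.01 over all genes of at least 20 CPM. Of the 17, 12 were higher in the highest WT bin, among them FOXC2 and CD44, whose intervals hold 0. The share of all genes higher in that bin was not counted, so this count has no background and is not read as a shift. Of the genes under 20 CPM, some are named here after their values were seen. The forkhead gene FOXC1 had 0.206 CPM and 11.0 CPM in the end bins of WT, the integrin gene ITGA5 3.13 CPM and 15.5 CPM, and the WNT effector LEF1 1.20 CPM and 4.89 CPM. ZEB1, the relative of ZEB2, stayed under 1 CPM in both end bins, at 0.112 CPM and 0.851 CPM. SNAI3, a relative of SNAI1 on the same list, went the other way. It had 2.14 CPM and 0.213 CPM in the end bins of WT, a log2 ratio of -1.37 (-1.63 to -0.80).

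The 4 catenin genes, whose proteins tie cadherins to the cytoskeleton, lay within 2-fold in each comparison, with a median of 0.10 between the libraries. CTNNB1 had 135.4 CPM (WT) and 108.6 CPM (GATA3 KO), and JUP, the gene of plakoglobin, 20.0 CPM and 36.0 CPM, a log2 ratio of 0.82 (0.75 to 0.89).

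Genes with the pattern most like each cadherin were sought over the 9 bins of both libraries, among the genes of at least 20 CPM. For CDH2 these were DDT, NMD3, WTAP, TLE4 and ISOC1, with Pearson correlations of log2(CPM plus 1) between 0.964 and 0.979. DDT had 318.1 CPM and 659.8 CPM in the end bins of WT and 229.3 CPM and 305.0 CPM in those of GATA3 KO, though it has a near-identical neighbour with which reads can be split. For CDH1 they were ACAD8, AC104461.1, NSMCE4A, SPINT2 and RIMKLB, with correlations between 0.951 and 0.971, and SPINT2, a gene of a serine protease inhibitor of epithelia, had 284.4 CPM and 241.2 CPM in WT and 265.1 CPM and 228.8 CPM in GATA3 KO. The 9 points come from 2 libraries and share their cells and scaling, so these values describe likeness only.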

How the data were processed

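The authors made 10x Genomics 3′ v3 libraries and processed them with Cell Ranger 3.0.2 (per the file headers) on GRCh38. The deposited files hold raw UMI counts per gene and cell barcode, with 1 library per group (WT and GATA3 KO). Cells above 7500 detected genes or 25% mitochondrial UMIs were removed as in the methods of the study. No doublet caller was run. Instead, an alternative left out the kept cells with the most UMIs, at 0.8% per 1000 deposited cells.

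Counts of kept cells were summed per library or bin and given per 1000000 UMIs (CPM). Ratios are log2 of CPM plus 1, which understates changes of genes with low counts, and their intervals came from exact binomial limits on how the 2 counts divide. Shares and bins used cells thinned without replacement to 10000 UMIs, which left out 346 WT and 412 GATA3 KO cells. There were no replicates, hence no tests or p-values. PCR copies were collapsed by UMI, and intervals cover counting error only. Positions came from GENCODE 44 by gene identifier. Genes named were the 9 members, list members past 2-fold at 20 CPM or more, the 5 genes most like CDH1 and CDH2, the streak genes and GATA3. Other list genes, markers and the genes that split the cells (JUP, CTNNB1, FOXC1, ITGA5, LEF1, ZEB1, MESP1, CER1, SOX2, TFAP2A and the like) were named outside this rule, after their values were seen. Members and lists were chosen with earlier results of these data known. Alternatives changed the cell filter, the scaling (TMM of edgeR 4.0.16), the pseudocount (0.1 CPM), the minimum level, the thinning depth, the seed and the genes that ordered the cells. Analyses used Python 3.11.15, numpy 2.4.6 and scipy 1.17.1, and scripts were tested on simulated data.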

Additional observations from a re-analysis of the deposited data

How the results depend on the processing

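With 1 library per group, no replicate spread is known, and the highest GATA3 KO bin holds 22 cells, so differences under its counting intervals were not detectable. No paired analysis was possible because each group has 1 library.

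The CDH2 log2 ratio of -1.33 kept its direction in each alternative and moved beyond its counting interval over all deposited cells (-1.24), with the mitochondrial limit only (-1.25) and as a mean of per-cell CPM (-1.10). CDH1 (-0.12) did so in the same 3 settings, at -0.28, -0.29 and -0.069 in that order. EPCAM changed sign there, at -0.035, -0.026 and -0.079, and FN1 over all deposited cells (-0.064) and with the mitochondrial limit only (-0.070). The count of 243 genes past 2-fold became 451 with a minimum of 5 CPM and 586 with none. The WT switch of 2.47 was 2.17 over all deposited cells, 2.17 with the mitochondrial limit only, 2.03 with thinning to 20000 UMIs, 2.85 by MIXL1 alone, 2.15 by EOMES alone, 1.09 by TBXT alone and, in a setting chosen after seeing the data, 1.90 with a highest bin of 4 or more. The GATA3 KO switch of 1.42 was 0.17 by TBXT alone, with a highest bin of 1 or more, and 0.87 without cells that held TFAP2A, with a highest bin of 2 or more, the latter chosen after seeing the data. By a single gene the highest WT bin also changed for EOMES (4 or more) and TBXT (2 or more). The cause of these changes was not tested.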
